A study of Caenorhabditis elegans with 15 samples.

Results

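The his genes are the histone genes of *Caenorhabditis elegans*, taken here as every gene whose WormBase symbol begins with his- and that had a total of at least 10 reads over the 15 samples of the count table. Of 72 his genes among the 46778 genes of that table, 42 met this minimum, and 30 did not. RNA of whole worms of the wild-type strain N2 at adult day 1 was sequenced in 3 groups of 5 samples. The Ag group received silver nanoparticles at 10 µg/ml, the SiO2 group received silicon dioxide nanoparticles at 10 µg/ml, and the Control group received none. All groups were grown in wells from the first larval stage (L1) with *E. coli* OP50 as food for 72 h at 21 °C, with 350 to 400 larvae to a well. The methods place the incubation with particles over the growth from L1, and the paper's discussion likewise describes it as lasting from L1 until adult day 1. The sample labels name adult day 1 for the incubation, a difference that the sources do not explain. Worms grew in individual wells, and the methods name more repeats of each condition than the 5 samples analysed here. Which repeat gave which sample is not stated, so the p-values measure the spread between these samples.

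Core histones (H2A, H2B, H3 and H4) form the protein spool around which DNA is wound, and the linker histone H1 binds the DNA between spools. Most animal core histone genes are short, lack introns and are copied many times, and their mRNAs are made during DNA replication and end in a stem-loop in place of a poly(A) tail. Replacement histones such as the H3.3 type of H3 are made outside replication from genes that have introns and polyadenylated mRNAs. In an adult worm, DNA replication goes on mainly in the germ line and in the embryos held in the uterus.

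Reads assigned to genes ranged from 16560734 in Ag 8 to 24296570 in SiO2 12. Levels are given as CPM, the read count of a gene scaled to a common, TMM-normalized library size. The his genes took between 0.111% and 0.166% of the reads of a sample. The library Ag 8 stood apart from the other Ag samples in the intronless his genes, in sperm markers and in larval markers. It was also the highest Ag sample in ribosomal RNA, within the range of the SiO2 samples. Results that rest on Ag 8 are given with and without it. Whole worms were sequenced, so fewer cells of a type and less RNA per cell cannot be told apart.

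The 72 his genes lay in 19 groups on the WBcel235 genome, with 27 genes on chromosome V, 22 on IV, 14 on II, 4 on X, 3 on III and 2 on I. There were 31 divergent pairs, meaning neighbours read away from each other from a shared stretch of 227 to 368 bases. Of these pairs, 16 joined an H2A gene to an H2B gene and 14 joined an H3 gene to an H4 gene. In 14 pairs both genes were among the 42. By class, the 42 comprised 1 H1 gene, 8 H2A genes, 7 H2B genes, 11 H3 genes, 6 H3 variant genes and 9 H4 genes. Coding sequences gave 208 residues for the H1 gene his-24, 127 for H2A, 123 for the H2B gene his-41, 136 for H3 and 103 for H4. The H3 variant model his-73 was a fragment of 46 residues inside the gene W09H1.4 on the same strand, so its reads cannot be assigned with certainty.

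Introns and annotated UTRs were present in 8 of the 42 genes: his-24 (H1), his-35 and his-57 (H2A), his-41 (H2B), his-37 (H4) and the H3 variants his-71, his-72 and his-74. Of these, all but his-57 stood far above every other his gene. Their totals over the 15 samples were between 17675 and 164864 reads, against 1493 reads for the next gene, the H2A gene his-68. The 7 genes together held 98.1% of all his reads in the count table. In the Kallisto table the 8 intron-containing genes held 95.7% of the his reads. Per kilobase of exon and averaged over the 15 samples, his-24 stood at 598 CPM per kb, his-72 (an H3.3 gene) at 526, his-37 at 353, his-71 (also H3.3) at 221, his-35 at 148, his-41 at 135 and his-74 at 104 CPM per kb. Below them came his-68 at 13.1 and the H4 gene his-60 at 11.9 CPM per kb, and 28 of the 42 genes had a mean under 1 CPM. These levels come from counted reads that fit within a gene model, and the intronless models had no annotated UTR. A read of 100 bases has 213 possible places in the 312 bases of his-60 and 824 in the 923 bases of his-24. CPM per kb was not corrected for this. How RNA was selected for the libraries is not given and also bears on these levels.

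**Figure D1:**
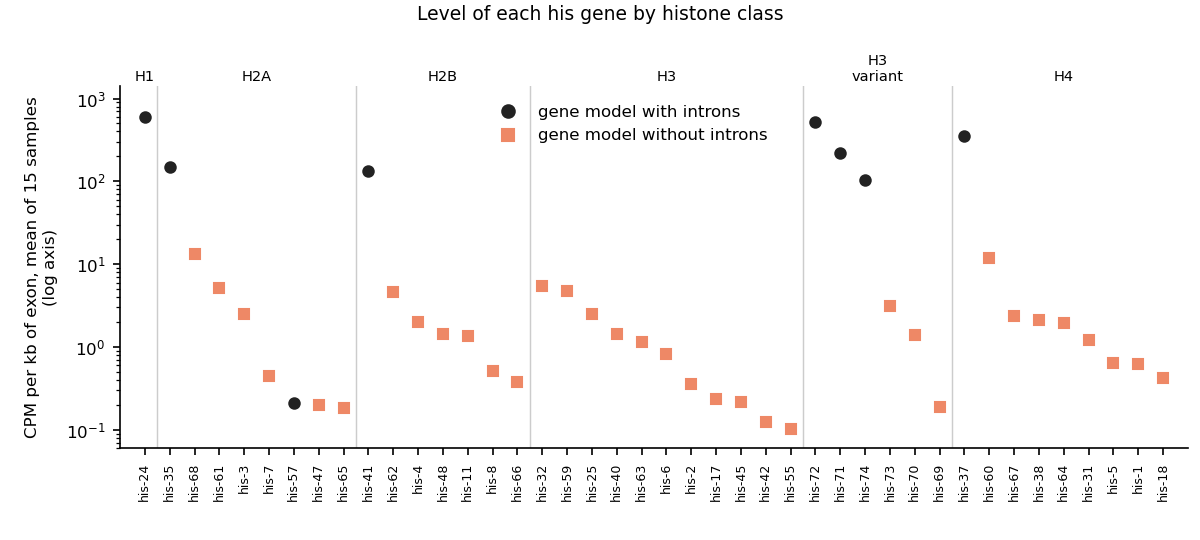
Mean level of the 42 his genes in the count table over the 15 samples, in CPM per kilobase of exon on a log axis, ordered within each histone class. Circles are gene models with introns and squares are models without. The 7 highest genes, from his-24 at 598 to his-74 at 104 CPM per kb, all have introns, and his-57 is the intron-containing gene among the low ones.

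The order of these levels held in single samples for most neighbours and failed for some. Levels of his-72 exceeded those of his-37, those of his-37 exceeded those of his-71, and those of his-71 exceeded those of his-35 in 15 of 15 samples. By contrast, his-24 was above his-72 in 0 of 5 Ag samples, 5 of 5 SiO2 samples and 5 of 5 Control samples. Group means were 435 CPM per kb for his-24 and 487 for his-72 in Ag worms, 602 and 516 in SiO2 worms, and 757 and 575 in Control worms. The H2B gene his-41 was above the H3 variant his-74 in 2 of 5 Ag, 4 of 5 SiO2 and 5 of 5 Control samples. His-68 was above his-60 in 5 of 5 Ag, 1 of 5 SiO2 and 4 of 5 Control samples. These orders are descriptions without a test.

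The intron-containing H2A, H2B and H4 genes lay side by side on chromosome V. His-35 (chrV:9544659-9545288) and his-41 (chrV:9545536-9546264) form a divergent pair with 247 bases between them, and his-37 (chrV:9547105-9547607) follows. His-41 overlaps C50F4.6 on the same strand and his-37 overlaps nstp-10 on the other strand. The strand setting of the counting is not given in the sources used here, so reads in these overlaps are uncertain. In all, 8 of the 42 genes overlap another gene model. These are his-24 (2 non-coding RNAs), his-37, his-41, his-57 (klp-12), his-72 (the snoRNA Y49E10.36), his-73, and his-4 and his-8 (1 non-coding RNA each).

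Copies of the intronless genes are near-identical, and the deposited tables treated them differently. In the count table a read had to align within a gene and to be assigned to it alone, while the Kallisto table divides reads between compatible transcripts. Of the 30 his genes under 10 counts, 24 had 0 counts, and 20 had an estimated total of at least 10 reads in the Kallisto table. Together these 30 genes had 17 counted reads and 2845 estimated reads. Identical Kallisto values in every sample were shared, to within 0.01 reads, by 24 his genes in 10 groups, none of them among the 42 genes. The H3 genes his-9 and his-13, for example, each had an estimate of 412.9 reads against 0 and 1 counted reads. The 6 genes his-49 to his-54 on chromosome V had 0 counted reads in all 15 samples and 405.3 estimated reads.

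Among the 42, the ratio of estimated to counted reads was highest for 2 genes with few counts, his-55 (H3), with 176.9 estimated and 12 counted reads, and his-65 (H2A), with 252.1 estimated and 21 counted reads. Among genes with at least 100 counts it was highest for his-25 (H3), with 3146 estimated and 294 counted reads, and for his-11 (H2B), with 1028 estimated and 144 counted reads. His-25 and his-11 lie in the group of 13 genes on chromosome II, which had 6264 estimated and 463 counted reads. The 8 intron-containing genes together had an estimated total 0.675 times the counted one, and their lowest ratio was that of his-37, with 19388 estimated against 45311 counted reads. The exception among them was his-57, with 86.1 estimated and 41 counted reads. Over all intronless genes the estimated total was 1.56 times the counted one. The scale of an intronless copy therefore depended on the table. Each comparison between groups used a single table, and its size, and for some sums its sign, also differed between the tables.

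**Figure D2:**
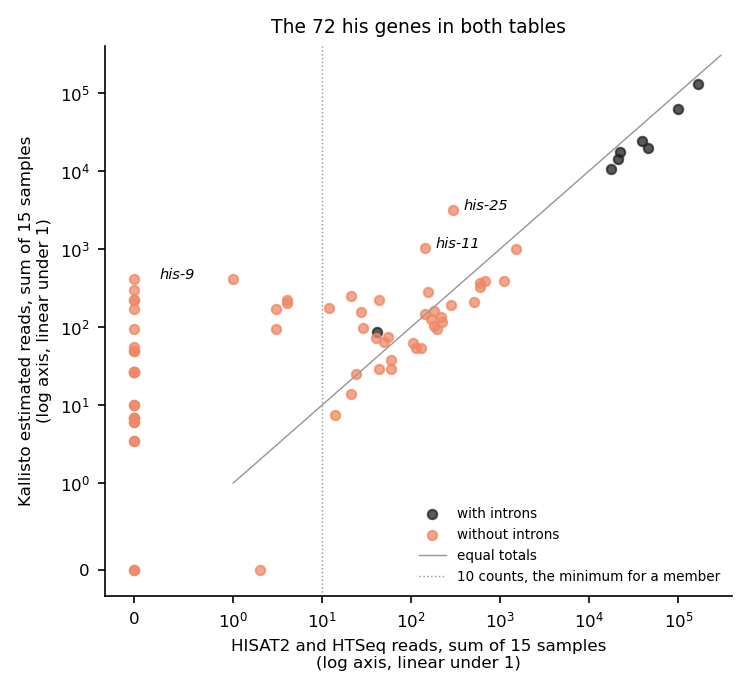
Reads of the 72 his genes summed over 15 samples, with counted reads on the horizontal axis and Kallisto estimates on the vertical axis, both on log axes that are linear under 1. The genes at the left edge had 0 counted reads, and his-25 and his-11, right of the dotted minimum of 10 reads, lie above the line of equal totals with 3146 and 1028 estimated reads.

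In Ag worms compared with Control, the H1 gene his-24 and a divergent H3 and H4 pair were lower. The H4 gene of that pair rested on few reads and lost its call when any sample was left out. His-24, the H1.1 linker histone gene, stood at 0.575 of its Control level, the H3 gene his-32 at 0.422 and its neighbour, the H4 gene his-31, at 0.363. The H2B gene his-41 fell to 0.786 of Control, and the H3 variant his-74 rose to 1.43 times Control. Thus 5 of the 42 his genes passed the test (edgeR quasi-likelihood, Benjamini-Hochberg adjusted p under 0.05 over 20669 genes), 4 lower and 1 higher. Of all genes tested, 7.76% passed, 3.41% lower and 4.35% higher. The median log2 fold change was -0.15 over the 42 genes and -0.01 over all genes tested, and 26 of the 42 had a negative one.

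His-24 (WBGene00001898, chrX:14490094-14491119) had 338, 337, 412, 446 and 475 CPM in Ag worms, 545, 528, 635, 595 and 476 CPM in SiO2 worms, and 593, 659, 706, 788 and 749 CPM in Control worms. Every Ag sample was below every Control sample and below every SiO2 sample. The log2 fold change of Ag against Control was -0.80 ± 0.12 (SE, edgeR adjusted p = 0.0021). His-24 passed in each of the 8 alternative analyses and without each of the 10 samples in turn, with edgeR adjusted p up to 0.00846. In the Kallisto table the log2 fold change was -0.79 (edgeR adjusted p = 0.0025).

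His-32 (H3, WBGene00001906, chrIV:8334305-8334715) and his-31 (H4, WBGene00001905, chrIV:8333672-8333983) diverge from a stretch of 321 bases. His-32 had 0.860, 1.58, 1.22, 1.25 and 1.59 CPM in Ag worms, 1.699, 2.53, 3.27, 2.34 and 2.04 CPM in SiO2 worms, and 2.78, 2.35, 2.95, 3.74 and 3.58 CPM in Control worms. These are 19 to 34 reads per Ag sample, 32 to 65 per SiO2 sample and 44 to 87 per Control sample. The Ag samples overlapped with neither of the other groups. The log2 fold change of Ag against Control was -1.25 ± 0.22 (SE, edgeR adjusted p = 0.0064), and it passed in all 8 alternatives, Kallisto included, and without each sample.

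His-31 had 0.045, 0.233, 0.193, 0.217 and 0.283 CPM in Ag worms, 0.159, 0.237, 0.453, 0.742 and 0.498 CPM in SiO2 worms, and 0.694, 0.428, 0.322, 0.559 and 0.694 CPM in Control worms. Each value rests on few reads: 1 to 5 in the Ag samples, 3 to 13 in the SiO2 samples and 7 to 14 in the Control samples. The Ag samples were all below the Control samples, with a log2 fold change of -1.46 ± 0.43 (SE, edgeR adjusted p = 0.0482). The call was lost without any one of the 10 samples (edgeR adjusted p 0.0589 to 0.0927) and in the Kallisto table (log2 fold change -0.88, edgeR adjusted p = 0.259). The other 4 genes of that group, his-29, his-30, his-33 and his-34 (H2A and H2B), had 0 counted reads.

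His-41 (H2B, WBGene00001915) had 65.5, 57.4, 63.2, 49.1 and 57.8 CPM in Ag worms, 85.2, 77.9, 78.7, 57.9 and 75.5 CPM in SiO2 worms, and 76.9, 73.2, 76.7, 72.2 and 73.7 CPM in Control worms. All Ag samples were below all Control samples, and the log2 fold change was -0.35 ± 0.09 (SE, edgeR adjusted p = 0.0374). It stayed called only without Control 1, Control 5, Ag 6 or Ag 8, with edgeR adjusted p between 0.0277 and 0.1046 over the 10 omissions, and it was 0.0654 in the Kallisto table. Its divergent partner his-35 (H2A) had 74.6, 68.7, 76.8, 57.96 and 59.8 CPM in Ag worms and 70.9, 80.1, 78.8, 76.0 and 73.5 CPM in Control worms. These groups overlapped, with a log2 fold change of -0.17 ± 0.10 (SE, edgeR adjusted p = 0.262). Whether the pair differed in its response was not tested.

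His-74 (H3 variant, WBGene00012276, chrV:12659704-12660330) had 57.9, 59.3, 72.6, 84.6 and 80.1 CPM in Ag worms, 39.5, 60.9, 54.5, 82.4 and 61.01 CPM in SiO2 worms, and 54.4, 36.2, 42.1, 50.8 and 64.04 CPM in Control worms. The Ag and Control samples overlapped, and the log2 fold change was 0.52 ± 0.15 (SE, edgeR adjusted p = 0.0494). It stayed called only without Control 5 or Ag 6, with edgeR adjusted p between 0.0263 and 0.1349, and it was 0.0611 in the Kallisto table. The other H3.3 genes with introns had negative values and did not pass. His-72 averaged 311 ± 29.5 CPM in Ag worms and 367 ± 30.1 CPM in Control worms (SD, n = 5 each), with a log2 fold change of -0.24 ± 0.09 (SE, edgeR adjusted p = 0.112). His-71 averaged 121 ± 10.2 CPM in Ag worms and 142 ± 13.1 CPM in Control worms, with a log2 fold change of -0.23 ± 0.09 (SE, edgeR adjusted p = 0.121). For both genes all 5 Ag samples were below the Control mean.

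Of the remaining genes, the H2A gene his-68 had 6.25, 5.96, 6.03, 6.34 and 5.66 CPM in Ag worms, 3.13, 4.03, 4.28, 6.45 and 5.77 CPM in SiO2 worms, and 3.62, 3.96, 4.19, 5.24 and 4.68 CPM in Control worms. All Ag samples were above all Control samples, but the log2 fold change of 0.48 ± 0.15 did not pass (SE, edgeR adjusted p = 0.0584), although it did with the likelihood ratio test, DESeq2 and the genes kept by filterByExpr. The H4 gene his-37 averaged 137 ± 26.1 CPM in Ag worms and 165 ± 21.2 CPM in Control worms (SD, n = 5 each), with a log2 fold change of -0.27 ± 0.13 (SE, edgeR adjusted p = 0.177). None of the remaining named genes passed in any comparison. The H3 gene his-59 averaged 2.23 ± 0.467 CPM in Ag worms, 1.85 ± 0.520 CPM in SiO2 worms and 1.84 ± 0.348 CPM in Control worms (SD, n = 5 each). The H2B gene his-62 averaged 1.63 ± 0.769 CPM in Ag worms, 1.76 ± 0.512 CPM in SiO2 worms and 1.79 ± 0.361 CPM in Control worms, and his-48, also H2B, averaged 0.436 ± 0.160, 0.627 ± 0.130 and 0.522 ± 0.334 CPM in these groups. The H3 variants his-69 and his-73 were close to the limit of counting. His-69 had 13 reads in all Ag samples, 3 in all SiO2 samples and 5 in all Control samples, and his-73 had 44, 50 and 36 reads.

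Ag and Control samples did not overlap for 5 of the 42 genes (his-24, his-31, his-32 and his-41 lower, his-68 higher), and 9.2% of all genes tested did not overlap. In the exact permutation test (two-sided, unadjusted, 57 tests of 19 named genes in 3 comparisons) these 5 genes reached 0.0079, the smallest p that 5 against 5 samples allow. Groups without overlap always give this p, so it repeats the overlap and adds no support.

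**Figure D3:**
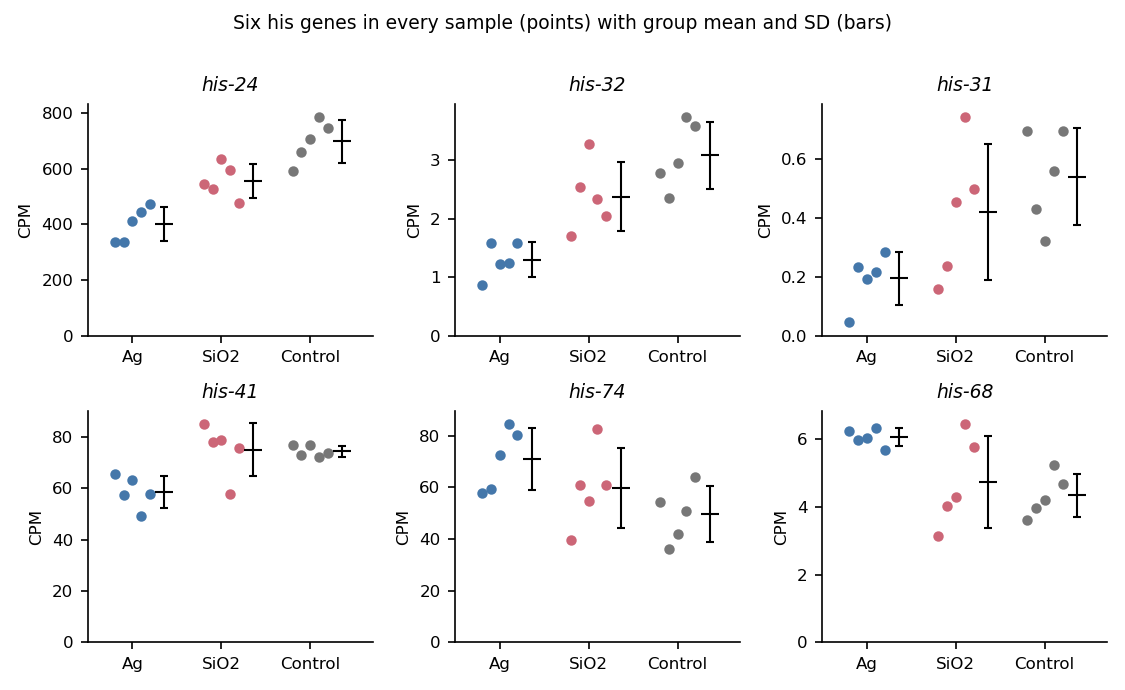
CPM of his-24, his-32, his-31, his-41, his-74 and his-68 in every sample of the Ag, SiO2 and Control groups, with the group mean and SD as bars. For his-24, his-32, his-31 and his-41 the Ag points all lie below the Control points, for his-74 the groups overlap, and for his-68 the Ag points lie between 5.66 and 6.34 CPM, all above the Control points.

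By class, 1 of 1 H1 gene, 1 of 11 H3 genes, 1 of 9 H4 genes, 1 of 7 H2B genes, 1 of 6 H3 variants and 0 of 8 H2A genes passed in Ag worms. Of the 8 intron-containing genes 3 passed, 2 lower and 1 higher, with a median log2 fold change of -0.24. Of the 34 intronless genes 2 passed, both lower, with a median of -0.11. Over all genes tested in this fit, 7.76% passed, so counts of 1 or 2 in such small sets say little about a class. With the Kallisto estimates, his-24 and his-32 passed, both lower, as did 7.2% of all genes tested with them, 3.26% lower and 3.94% higher. Without Ag 8, 3 of the 42 passed, all lower (his-24, his-32 and his-41). This is 7.14% of the 42, against 6.97% of all genes in that fit, 3.3% of them lower.

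**Figure D4:**
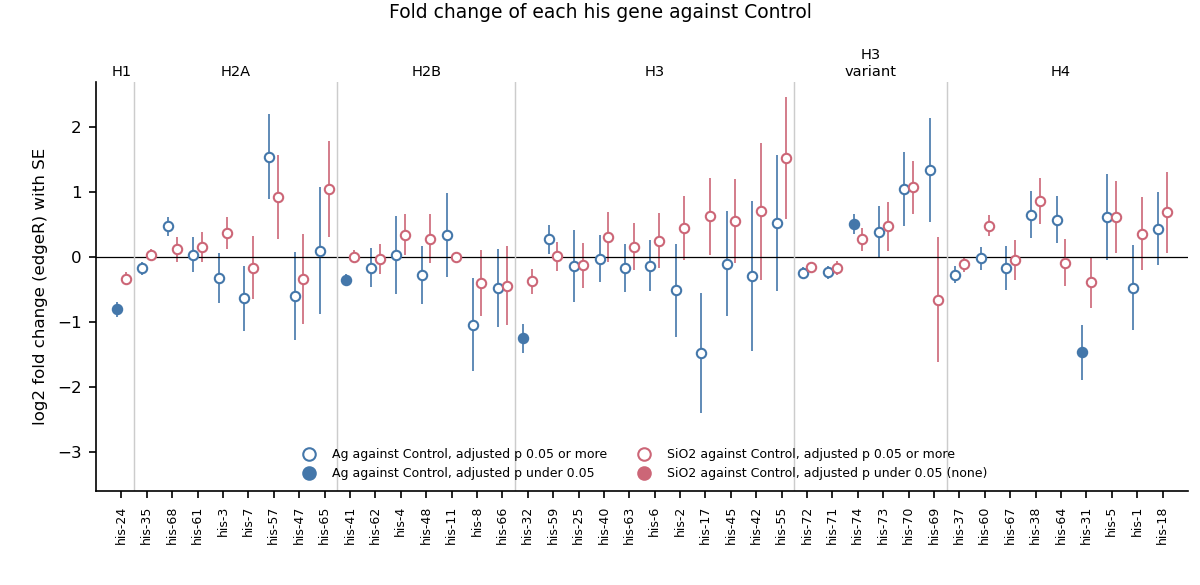
Log2 fold change of each of the 42 his genes against Control in Ag worms and in SiO2 worms, with its SE, by histone class. Filled points had an edgeR adjusted p under 0.05, namely his-24, his-41, his-32, his-74 and his-31 in Ag worms and none in SiO2 worms. The SE of his-11 in SiO2 worms is left off, because it is not defined where the fold change is close to 0.

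In SiO2 worms compared with Control, none of the 42 his genes passed, while 2.66% of all genes tested did, 1.91% higher and 0.743% lower. At an unadjusted edgeR p under 0.05 there were 4 of them (his-24, his-38, his-60 and his-70), a smaller share than the 3096 of 20739 genes tested. The likelihood ratio test and DESeq2 also called 0. With the Kallisto estimates it was 0 as well, against 2.4% of all genes, 1.67% higher and 0.734% lower. No gene had groups without overlap, against 3.73% of all genes tested. The median log2 fold change was 0.16 over the 42 genes and 0.01 over all genes tested. This median differs in sign from the change of the sum over the genes, which his-24 dominates.

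His-24 averaged 556 ± 61.3 CPM in SiO2 worms and 699 ± 76.1 CPM in Control worms (SD, n = 5 each). All 5 SiO2 samples were below the Control mean, with a log2 fold change of -0.33 ± 0.10 (SE, edgeR adjusted p = 0.0896). The H4 gene his-60 had 3.50, 5.02, 4.43, 5.14 and 4.88 CPM in SiO2 worms and 3.82, 2.78, 3.32, 2.751 and 3.76 CPM in Control worms, with a log2 fold change of 0.49 ± 0.16 (SE, edgeR adjusted p = 0.143). The H3 variant his-70 had 0.372, 1.11, 1.057, 0.571 and 0.299 CPM in SiO2 worms and 0.347, 0.321, 0.322, 0.430 and 0.173 CPM in Control worms, with a log2 fold change of 1.08 ± 0.41 (SE, edgeR adjusted p = 0.202). For his-32 the log2 fold change was -0.37 ± 0.20 (SE, edgeR adjusted p = 0.409), and for his-41 it was 0.01 ± 0.10 (SE, edgeR adjusted p = 0.992).

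In SiO2 worms compared with Ag worms, his-24 was 1.38 times and his-32 was 1.83 times as high, and these 2 of the 42 genes passed, both higher. Of all genes tested, 3.4% passed, 2.04% higher and 1.36% lower. His-24 had a log2 fold change of 0.47 ± 0.11 (SE, edgeR adjusted p = 0.0252) and his-32 one of 0.87 ± 0.23 (SE, edgeR adjusted p = 0.0391). Both had groups without overlap, as had 4.8% of all genes tested. Over the 15 omissions of a sample the log2 fold change ran from 0.41 to 0.54 for his-24, which stayed called in 10 of them, and from 0.73 to 0.97 for his-32, which stayed called in 9. His-24 was not called without Ag 6, Ag 7, SiO2 11, SiO2 12 or SiO2 13 (edgeR adjusted p up to 0.0846), and his-32 was not called without Control 3, Ag 6, Ag 8, Ag 9, SiO2 12 or SiO2 13 (edgeR adjusted p up to 0.120). Neither passed in a fit of these groups alone. Neither passed with the Kallisto estimates (edgeR adjusted p = 0.0799 and 0.123), with which 2.81% of all genes passed, 1.22% higher and 1.58% lower. His-41 had 75.1 ± 10.2 CPM in SiO2 worms and 58.6 ± 6.35 CPM in Ag worms (SD, n = 5 each), with a log2 fold change of 0.36 ± 0.10 (SE, edgeR adjusted p = 0.0582). His-60 had a log2 fold change of 0.50 ± 0.16 (SE, edgeR adjusted p = 0.0926). The comparisons with Control share the Control samples, so their values for a gene are not independent of each other.

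Summed over the 42 genes, the his level was 1194 ± 80.7 CPM in Ag worms, 1407 ± 82.4 CPM in SiO2 worms and 1599 ± 90.6 CPM in Control worms (SD, n = 5 each). The samples ran from 1100 to 1265 CPM in Ag worms, from 1283 to 1509 CPM in SiO2 worms and from 1473 to 1693 CPM in Control worms. In the count table the Ag samples lay below all others, while SiO2 and Control samples overlapped. In the Kallisto table the sums ran from 845 to 1041 CPM in Ag worms, from 1007 to 1124 CPM in SiO2 worms and from 1134 to 1337 CPM in Control worms. There Ag and SiO2 samples overlapped through Ag 8, and both exposures lay below Control. The log2 ratio of group means in the count table was -0.42 for Ag against Control, -0.18 for SiO2 against Control and 0.24 for SiO2 against Ag. His-24 made up most of the first difference, with 402 CPM in Ag worms and 699 CPM in Control worms. No test was run on sums.

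The classes differed in how far their sums lay apart. Most of 3 class sums was a single gene. His-41 held 20799 of 21923 counted H2B reads, his-35 held 22079 of 24580 H2A reads and his-37 held 45311 of 47293 H4 reads. H2B summed to between 52.8 and 70.6 CPM in Ag worms and between 75.8 and 80.7 CPM in Control worms in the count table, without overlap, which largely repeats the result of his-41. In the Kallisto table the H2B sums overlapped, at 41.8 to 66.7 CPM in Ag worms and 57.9 to 68.4 CPM in Control worms. H3 summed to 6.08 ± 0.9905 CPM in Ag worms, 7.42 ± 1.23 CPM in SiO2 worms and 7.74 ± 1.05 CPM in Control worms in the count table. The log2 ratio of the H3 sums for Ag against Control was -0.35 by counts, and by Kallisto it was 0.08 with Ag 8 and -0.52 without it. H3 variants summed to 504 ± 32.4 CPM in Ag worms, 517 ± 23.7 CPM in SiO2 worms and 560 ± 35.5 CPM in Control worms. H2A summed to 76.8 ± 9.52 CPM in Ag worms, 86.7 ± 4.29 CPM in SiO2 worms and 83.4 ± 3.50 CPM in Control worms. H4 summed to 143 ± 26.3 CPM in Ag worms, 161 ± 22.1 CPM in SiO2 worms and 171 ± 20.8 CPM in Control worms (SD, n = 5 for each class and group). For these H2A, H3, H3 variant and H4 sums the groups overlapped.

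The sums of the intronless genes depended on Ag 8. Over all 64 intronless genes the counted sum was 22.5, 23.8, 35.6, 24.5 and 24.7 CPM in Ag worms, 24.1, 31.4, 29.3, 32.9 and 26.5 CPM in SiO2 worms, and 26.1, 23.2, 23.1, 27.2 and 29.997 CPM in Control worms. The Kallisto sum was 33.3, 32.5, 106.5, 40.9 and 35.8 CPM in Ag worms, 39.3, 51.9, 48.3, 55.8 and 41.6 CPM in SiO2 worms, and 60.5, 39.7, 36.1, 38.3 and 58.3 CPM in Control worms. Ag 8 was the highest of all 15 samples in both tables. The log2 ratio of group means for Ag against Control was 0.02 in the count table and 0.10 in the Kallisto table with Ag 8, and -0.12 and -0.39 without it. For the intron-containing genes it was -0.43 in the count table and -0.40 in the Kallisto table, and -0.45 and -0.43 without Ag 8. No test compared these sets of genes. In the Kallisto table the group of 13 genes on chromosome II held most of the Ag 8 sum, at 77.1 CPM. It had 11.3 to 18.1 CPM in the other Ag samples and 15.2 to 40.9 CPM in Control worms. In the count table this group held the smaller part, at 5.26 of 35.6 CPM in Ag 8. There it had 0.362 to 1.02 CPM in the other Ag samples and 0.945 to 2.78 CPM in Control worms. By counts his-25 had 2.82 CPM and his-11 had 2.18 CPM in Ag 8, while the other Ag samples had at most 0.704 and 0.340 CPM.

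Ribosomal RNA genes also took more reads in Ag 8, at 9990 CPM against 5657 to 7108 CPM in the other Ag samples. In SiO2 worms they took 8384 to 10920 CPM and in Control worms 5915 to 9285 CPM. Sperm marker genes summed to 82.7 CPM in Ag 8, with a median of 32.4 CPM in Ag worms, 36.3 CPM in SiO2 worms and 15.5 CPM in Control worms. The part of either in the level of the intronless copies was not tested. How RNA was selected for the libraries is not given in the sources used here, and the tail of a histone mRNA bears on whether such selection keeps it.

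**Figure D5:**
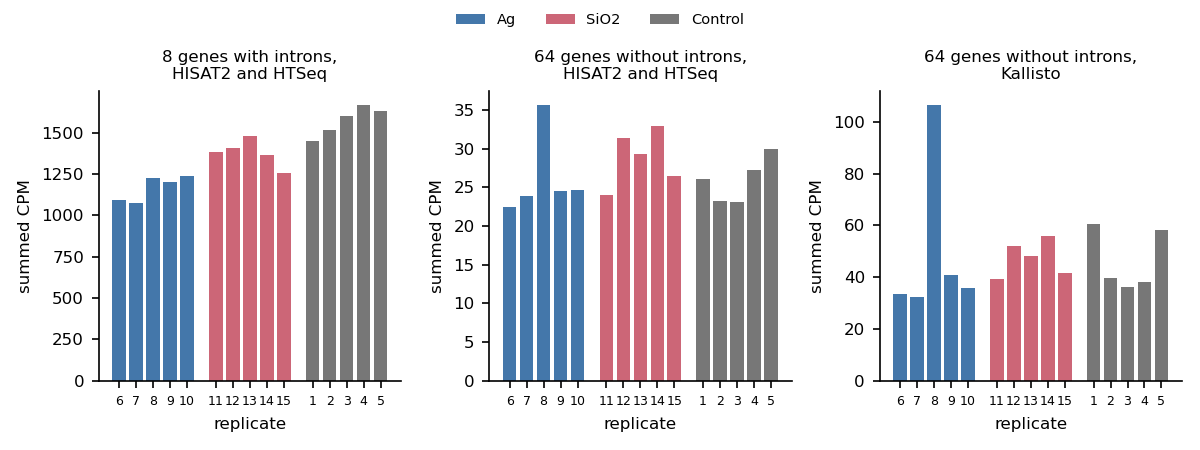
Summed CPM per sample of the 8 intron-containing his genes in the count table, and of the 64 intronless his genes in the count table and in the Kallisto table. Ag samples lie below all others for the intron-containing genes in the count table, and Ag 8 is the highest sample in both sums of intronless genes, at 35.6 and 106.5 CPM.

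Histone genes outside the his family were split in Ag worms. Of 12 such genes 2 were lower and 1 was higher, where 3.41% of all genes were lower and 4.35% higher. Log2 fold changes were positive for 6 of the 12 and negative for 6. The H1-like genes hil-3 and hil-2 fell, hil-3 averaging 125 ± 21.8 CPM in Ag worms and 225 ± 16.4 CPM in Control worms, and hil-2 182 ± 29.6 CPM in Ag worms and 266 ± 28.1 CPM in Control worms (SD, n = 5 each). Their log2 fold changes were -0.85 ± 0.12 and -0.55 ± 0.12 (SE, edgeR adjusted p = 0.0015 and 0.0166). For both genes Ag and Control samples did not overlap. The centromeric H3 variant gene cpar-1 rose, with a log2 fold change of 0.58 ± 0.16 (SE, edgeR adjusted p = 0.0393), and lost the call in 7 of 10 omissions of a sample (edgeR adjusted p up to 0.112). Neither hcp-3, the other centromeric H3 gene, nor htz-1, the gene of the H2A variant H2A.Z, passed. In SiO2 worms htas-1, an H2A variant gene of sperm, rose with a log2 fold change of 1.14 ± 0.27 (SE, edgeR adjusted p = 0.0319), but 7 of 10 omissions ended the call (edgeR adjusted p up to 0.0988). In SiO2 against Ag worms hil-3 was higher, with a log2 fold change of 0.55 ± 0.12 (SE, edgeR adjusted p = 0.0116).

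Genes that act on histone mRNA or histones were mostly not called. Of all genes tested in Ag worms against Control, 4.35% were called higher and 3.41% lower. Of 7 genes for histone mRNA processing and small RNA factors 2 rose in Ag worms: csr-1, an Argonaute that acts in histone mRNA maturation in *C. elegans*, with a log2 fold change of 0.67 ± 0.13, and ego-1, an RNA-dependent RNA polymerase of the same small RNA pathway, with 0.59 ± 0.16 (SE, edgeR adjusted p = 0.0114 and 0.0364). The call of ego-1 was lost in 6 of 10 omissions of a sample (edgeR adjusted p up to 0.106). The gene of the stem-loop binding protein, cdl-1, averaged 190 ± 35.5 CPM in Ag worms, 175 ± 31.1 CPM in SiO2 worms and 201 ± 30.9 CPM in Control worms (SD, n = 5 each) and was not called. Of 14 histone chaperone genes 1 rose in Ag worms, the ASF1-like gene asfl-1, with a log2 fold change of 0.55 ± 0.15 (SE, edgeR adjusted p = 0.0398). This share of the chaperone genes, 7.14%, is close to the 7.76% of all genes called, and 5 of 10 omissions ended that call (edgeR adjusted p up to 0.116). None of 34 DNA replication and S phase genes passed in any comparison, and the Kallisto estimates also called 0. At an unadjusted edgeR p under 0.05 there were 8 in Ag worms against Control, 0 in SiO2 worms against Control and 3 in SiO2 against Ag worms. Over all genes tested these were 6183 of 20669, 3096 of 20739 and 4437 of 21180, a larger share each time. The median log2 fold change of the 34 genes was 0.20 in Ag worms and 0.00 in SiO2 worms, against -0.01 and 0.01 over all genes. In Ag worms 32 of the 34 were positive, as were 49.4% of all genes, and in SiO2 worms 20 were positive, as were 52.7% of all genes. In SiO2 against Ag worms 33 were negative, with a median of -0.20, while 50.7% of all genes were positive. These signs were not tested. In SiO2 worms against Control no gene of these 3 lists passed, while 2.66% of all genes did.

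Some markers of other cells and stages differed in Ag worms, while oocyte and larval markers gave no calls there. Of all genes tested against Control, 4.35% were called higher and 3.41% lower in Ag worms, and 1.91% higher and 0.743% lower in SiO2 worms. Markers of early embryos summed to between 17.9 and 41.1 CPM in Ag worms, 35.3 and 51.4 CPM in SiO2 worms, and 49.05 and 65.2 CPM in Control worms. All 10 of them had a negative log2 fold change in Ag worms, with a median of -1.06, and 2 passed, vet-6 at -1.23 ± 0.24 and sdz-28 at -1.002 ± 0.18 (SE, edgeR adjusted p = 0.0101 and 0.0060). In SiO2 worms all 10 were negative as well, with a median of -0.34 and none called. Germ line markers summed to between 1143 and 1877 CPM in Ag worms, 763 and 1737 CPM in SiO2 worms, and 674 and 1280 CPM in Control worms, and 6 of 10 were higher in Ag worms and 0 in SiO2 worms. Oocyte markers were all positive in Ag worms, with a median log2 fold change of 0.48, and none of 10 passed. At an unadjusted edgeR p under 0.05 there were 6 of them, and 6183 of all 20669 genes tested. Sperm markers summed to between 19.4 and 82.7 CPM in Ag worms, or at most 37.4 CPM without Ag 8, and 2 of 10 were higher in Ag worms, 0 without Ag 8, and 4 of 10 in SiO2 worms. Vitellogenins and col-19, which mark adults, summed to between 58584 and 65811 CPM in Ag worms, 49517 and 68742 CPM in SiO2 worms, and 51764 and 63288 CPM in Control worms. Of these 7 genes 4 were higher in Ag worms and none in SiO2 worms. Larval markers summed to between 434 and 978 CPM in Ag worms, where 434 CPM was Ag 8 and the other samples had at least 818 CPM, 810 and 1223 CPM in SiO2 worms, and 799 and 1279 CPM in Control worms, with 3 of 10 higher in SiO2 worms and 0 in Ag worms, or 2 without Ag 8. The part of embryo, germ line or sperm content in the his genes that changed was not tested.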

How the data were processed

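Whole-worm RNA of 15 samples was analysed, 5 each of Ag, SiO2 and Control. Reads were single-end and 100 bases long. The authors' pipeline ran Trim Galore 0.4.5, then HISAT2 2.1.0 against WBcel235, then HTSeq 0.9.1 (intersection-strict, Ensembl release 91), which gave the deposited whole-number counts. The deposited estimated counts come from Kallisto and tximport per the labels, with settings that are not given in the sources used here, and were rounded to whole numbers for tests. Positions and gene models came from a later Ensembl release of the same build, and WormBase symbols from RefSeq genes at identical coordinates for all 72 his genes. Histone classes were assigned by hand from general knowledge and checked by coding length.

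The whole table was fitted with edgeR 4.0.16 (R 4.3.3) by its quasi-likelihood test after TMM scaling. A gene needed a total count of 3 or more to be tested. The 10 samples of an exposure and Control entered each fit, and SiO2 was compared with Ag in a fit of all 15 samples. Adjusted p-values are Benjamini-Hochberg over all tested genes, and calls were made under 0.05. SE is the fold change divided by the square root of F. CPM used TMM factors over all 15 samples. Exact permutation tests used log2 CPM with a prior count of 2. Alternatives were the likelihood ratio test, DESeq2 1.42.0, RLE, library size only, 2 other count filters, Kallisto, another set of samples in the fit, and each sample left out. Scripts were tested on simulated data. Named genes are those called, the 2 highest of each class, the variant genes, the 3 highest and 3 lowest ratios of Kallisto to counted reads among genes with at least 100 counts, and up to 4 called genes of each list. The genes and lists were chosen with earlier results of these data known. No sequence was at hand for these genes.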

Additional observations from a re-analysis of the deposited data

Results flagged for a closer look

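In the Ag group, Ag 8 stood far from the other 4 samples in several his values. These were his-11 at 2.18 CPM and his-25 at 2.82 CPM in the count table, and the summed H3 genes at 44.4 CPM in the Kallisto table. The sum of the 34 intronless genes among the 42 was 35.4 CPM by counts and 76.8 CPM by Kallisto in Ag 8, and the sum of all 64 intronless his genes was 35.6 CPM by counts and 106.5 CPM by Kallisto. Several of these values share the same genes, so they are not separate findings. In the SiO2 group, SiO2 12 stood apart for the summed H4 genes in the Kallisto table, at 91.8 CPM against 69.4 to 73.6 CPM in the other SiO2 samples. In all, 8 of 111 values by group were this far out, and chance gives about 1 in 20.

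The Ag and SiO2 groups differed from each other in his-24, with a log2 fold change of 0.47 for SiO2 against Ag, and in his-32, with 0.87, both by edgeR in the fit of all 15 samples. His-24 was below the Control mean in 5 of 5 samples of each exposure.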

How the results depend on the processing

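No paired analysis was possible because no replicate number occurs in more than 1 group. For Ag against Control, 5 his genes were called, 3 with RLE normalization, 2 with Kallisto, and 2 to 4 when each of the 10 samples was left out. His-24 and his-32 were called each time. Over all genes these omissions gave between 353 and 1833 calls. For SiO2 against Ag, 2 were called, 4 with DESeq2, 0 with Kallisto, 0 with SiO2 and Ag samples alone, and 0 to 3 over the 15 omissions. For SiO2 against Control it was 0 in every analysis. As a median over the 42 genes in place of their sum, the log2 ratio was -0.13 for Ag against Control and 0.17 for SiO2 against Control. The value of his-41 in SiO2 against Control, close to 0, ran from -0.047 to 0.081 over the omissions of a sample. The cause was not tested. Intronless genes under 1 CPM have too few reads to show small changes. The planned count of 100-base windows unique in the genome was not run, since no genome was used here. The analyses without Ag 8 of sums and lists were chosen after seeing the data.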
